A study of Mus musculus with 8 samples.

Results

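The mitochondrial chromosome of the mouse held 37 of the 54532 genes in the count table. They were taken as every gene that the table places on chromosome MT, and by the table's own classes 13 code for proteins, 2 are rRNA genes and 22 are tRNA genes. The tumors were grown from 4T1-FLuc cells, a mouse triple-negative breast cancer line that carries luciferase, injected under the skin of immunocompetent female BALB/cJ mice at 6 weeks of age. Control mice received saline in the sample titles (PBS in the treatment field), and treated mice received mAb-DXd/IMQ, a humanized anti-CD276 antibody loaded with the TOP1 inhibitor DXd and the TLR7/8 agonist IMQ, in 5 courses of 16 mg per kg that were 4 days apart. Poly(A)-selected RNA from 4 whole tumors per group, taken at the endpoint, was sequenced, with no sequencing batch given in the labels. Total counts were 49398150, 45019927, 56388627 and 69582375 in saline tumors 1 to 4 and 51625237, 46196237, 42965317 and 34591912 in mAb-DXd/IMQ tumors 1 to 4.

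As background, mitochondria keep a small circular genome that encodes core subunits of the respiratory chain and ATP synthase, the rRNAs of the mitochondrial ribosome and the tRNAs it reads with. Both strands are transcribed as long precursors by the polymerase POLRMT with TFAM and TFB2M, and the tRNAs between the other genes are cut out to release the mRNAs and rRNAs. All other mitochondrial proteins come from the nucleus. Pieces of mitochondrial DNA have also been copied into nuclear chromosomes over evolution, and reads from such a copy and from its source cannot be told apart where the sequence is the same.

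The labelled tissue was checked first. All 6 markers of 4T1 carcinoma and epithelium passed the filter on low counts, and their summed level was 2636, 1827, 2572 and 2236 CPM in saline tumors 1 to 4 and 3487, 2679, 2144 and 2113 CPM in mAb-DXd/IMQ tumors 1 to 4 (CPM, counts scaled to library size with TMM factors), with Krt18 the most abundant. The groups overlapped, and 0 of the 6 were called, against 1.06% of all tested genes. Markers of other tissue were present too. Skeletal muscle markers summed to 70 to 594 CPM in saline and 134 to 436 CPM in mAb-DXd/IMQ tumors. Keratinocyte markers summed to 32.4 to 201 and 99.7 to 504 CPM. Receptors listed as absent in triple-negative cells summed to 93 to 139 and 97.5 to 135 CPM, mostly Erbb2 by abundance. The part of such tissue in the mitochondrial counts was not tested.

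A stretch of nuclear chromosome 1 shares its sequence with several of the mitochondrial genes. The sequences compared here and below are reference sequences. They were not read from these tumors, whose sequences may differ from them. Between chr1:24611535-24616197 (GRCm38, minus strand), 7 annotated genes matched mitochondrial genes in their order on chromosome MT. Gm28439 was identical to the first 876 bases of mt-Nd4, Gm10222 to 294 bases of mt-Nd4l, Gm28437 to 783 bases of mt-Co3, Gm10925 to 678 bases of mt-Atp6 and Gm28661 to 681 bases of mt-Co2. Gm28438 differed from 345 bases of mt-Nd3 at 1 base, and Gm29216 differed from the last 492 bases of mt-Co1 at 6 bases.

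The start of mt-Co2 (chrMT:7013-7072), which encodes subunit 2 of cytochrome c oxidase, is shown because Gm28661 (chr1:24615506-24615565, minus strand) has the same 60 bases.
mt-Co2 and Gm28661: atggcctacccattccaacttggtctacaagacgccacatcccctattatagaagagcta

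The start of mt-Nd3 (chrMT:9459-9518), a complex I subunit, and that of Gm28438 (chr1:24613060-24613119, minus strand) are shown with the differing base in capitals. The substitution is T9461C, with positions counted from 1 on chromosome MT, the mitochondrial base first and the base of the copy last.
mt-Nd3: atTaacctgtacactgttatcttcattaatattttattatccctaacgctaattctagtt
Gm28438: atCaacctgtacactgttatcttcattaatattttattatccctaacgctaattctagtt

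Gm29216, the copy with the highest coordinates of the 7, covers only a part of mt-Co1, which encodes the catalytic subunit of cytochrome c oxidase, and the sequence of chromosome 1 past the annotated gene was not read. Bases 1054 to 1113 of that gene (chrMT:6381-6440) are shown above the first 60 bases of Gm29216 (chr1:24616138-24616197, minus strand), with differing bases in capitals. The substitutions were T6383A, C6384T, A6386G, A6387G, C6389A and A6393T, and none was found in the rest of the 492 bases.
mt-Co1: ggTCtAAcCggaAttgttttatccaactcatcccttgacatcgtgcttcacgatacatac
Gm29216: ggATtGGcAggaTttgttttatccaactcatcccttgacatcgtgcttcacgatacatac

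Levels per length of the protein-coding genes fell into separate ranges along the chromosome. Averaged over the 8 tumors, CPM per kilobase of gene length was 7835 for mt-Co1, 3899 for mt-Cytb (cytochrome b of complex III), 3115 for mt-Nd1, 1745 for mt-Nd2, 1443 for mt-Nd4 and 1100 for mt-Nd5, which encode complex I subunits, and 734 for mt-Nd6, another complex I subunit. On the same scale the means were 183 for mt-Co2, 140 for mt-Atp6 (ATP synthase), 124 for mt-Co3 (cytochrome c oxidase), 31.5 for mt-Nd3, 20.4 for mt-Nd4l and 5.07 for mt-Atp8 (ATP synthase). Outside the protein-coding genes, mt-Rnr1 was at 335, between the ranges, and mt-Rnr2 at 170 and mt-Tp at 124 were inside the low one. How far rRNA and tRNA were captured after poly(A) selection was not tested, so these values are uncertain as levels. The low protein-coding genes lie next to each other between mt-Co1 and mt-Nd4. In each of the 8 tumors every one of these 6 was below every one of the other 7 protein-coding genes.

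The sequence shared with annotated nuclear transcripts followed this boundary only in part. Of all windows of 100 bases, 99.5% in mt-Co2, 99.5% in mt-Atp6, 99.9% in mt-Co3, 97.6% in mt-Nd3 and 98.5% in mt-Nd4l occurred unchanged in a nuclear transcript. The share was 60.8% in mt-Nd4, 30.8% in mt-Co1, 3.19% in mt-Nd2 and 0% in mt-Nd1, mt-Nd5, mt-Nd6, mt-Cytb, mt-Rnr1 and mt-Rnr2. The windows of mt-Nd2 were in Gm13339 on chromosome 2, and those of mt-Co1 in Gm29216 and in Gm13340 on chromosome 2. Gm13340 aligned with all 1545 bases of mt-Co1 at 97.61% identity. Thus mt-Nd4 and mt-Co1 were shared in part and were among the 7 higher genes, and mt-Atp8, the lowest of all, had 0% of its windows in an annotated transcript. mt-Atp8 lies between mt-Co2 and mt-Atp6, whose copies keep the same spacing on chromosome 1. Apart from the 43 bases that it shares with mt-Atp6, no gene is annotated at its place there, and the genome sequence was not used here. How reads that fit several places were counted is not given in the sources used here. The counts of these 6 genes, and those of mt-Nd4, mt-Co1 and, for its small shared part, mt-Nd2, are therefore uncertain as levels.

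**Figure D1:**
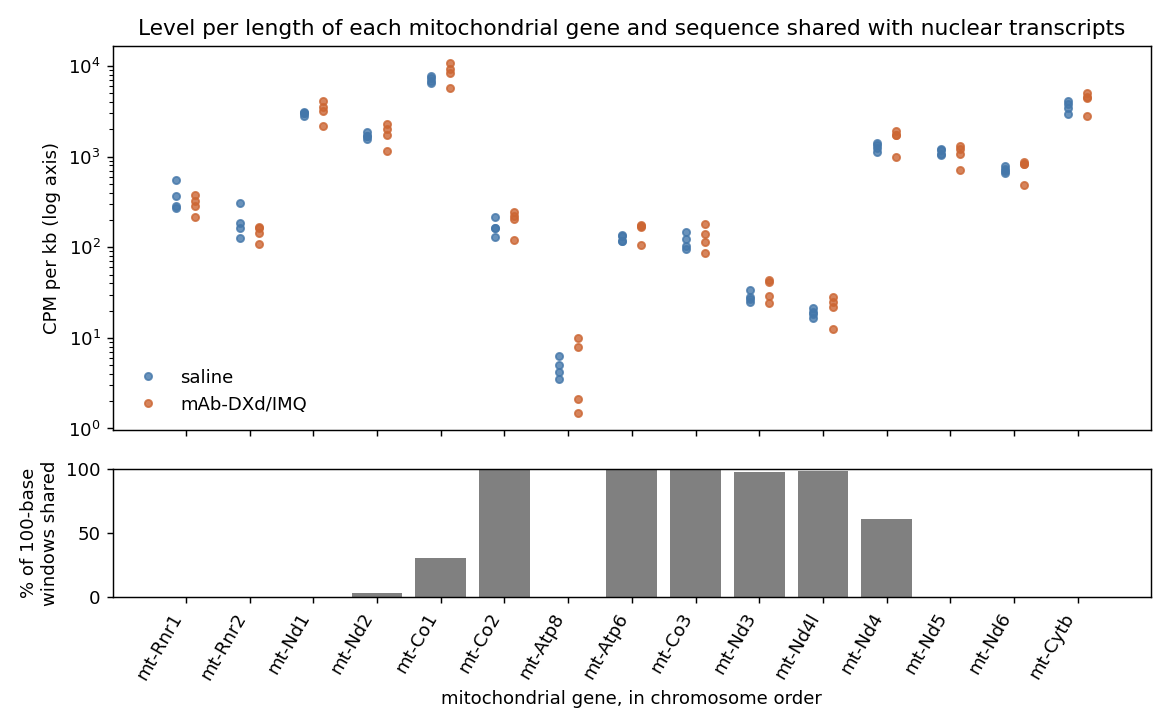
CPM per kilobase of gene length (upper panel, log axis, 1 point per tumor) and the percentage of 100-base windows found unchanged in annotated nuclear transcripts (lower panel) for the 15 protein-coding and rRNA genes in chromosome order. mt-Co2, mt-Atp6, mt-Co3, mt-Nd3 and mt-Nd4l have over 97% of windows shared and mean levels from 20.4 to 183, and mt-Atp8 is lowest with none shared.

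The copies of mt-Co2, mt-Atp6, mt-Co3, mt-Nd3 and mt-Nd4l had between 0.471 and 2.17 times the counts of their genes. For mt-Co2 the counts in saline tumors 1 to 4 were 5455, 6613, 6268 and 6040, and for its copy Gm28661 they were 3419, 3115, 4469 and 6235. In mAb-DXd/IMQ tumors 1 to 4 mt-Co2 had 3964, 7119, 6359 and 5943 counts and Gm28661 had 3135, 4670, 6965 and 3418. The copy exceeded the gene in saline tumor 4 and mAb-DXd/IMQ tumor 3 and was below it in the other 6 tumors. Counts on Gm28438 exceeded those on mt-Nd3 in all 8 tumors, by 1.17 to 2.17 times. Counts on Gm10925 were between 1.01 and 1.49 times those on mt-Atp6, counts on Gm28437 between 0.569 and 1.04 times those on mt-Co3, and counts on Gm10222 between 0.813 and 1.16 times those on mt-Nd4l. By contrast, Gm28439 had between 0.0131 and 0.0181 times the counts of mt-Nd4, and Gm29216 between 0.00489 and 0.0082 times those of mt-Co1. Gm10925, Gm28661 and Gm28437 were the copies with the highest mean counts, with log2 fold changes of 0.41 ± 0.17, 0.41 ± 0.22 and 0.24 ± 0.15 (SE, n = 4 per group) and edgeR adjusted p of 0.214, 0.334 and 0.4.

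**Figure D2:**
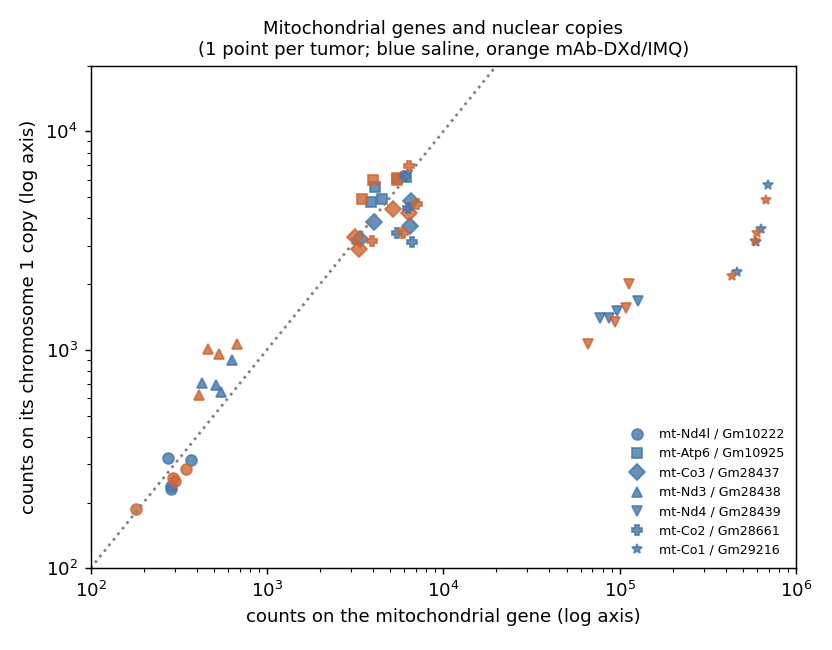
Counts on 7 mitochondrial genes (x, log axis) against counts on their chromosome 1 copies (y, log axis), 1 point per tumor, with the dotted line at equal counts. mt-Co2, mt-Atp6, mt-Co3, mt-Nd3 and mt-Nd4l lie near the line, and mt-Nd4 and mt-Co1 lie far to its right.

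The share of all counts on the 37 genes did not separate the groups. It was 2.52%, 2.46%, 2.47% and 2.4% in saline tumors 1 to 4 and 1.77%, 3.14%, 3.05% and 3.61% in mAb-DXd/IMQ tumors 1 to 4. The saline tumors lay close together, mAb-DXd/IMQ tumor 1 was below all of them and the other 3 treated tumors were above all of them. Group means were 2.46 ± 0.0528% and 2.9 ± 0.787% (SD, n = 4 each), a difference of 0.432 percentage points (exact permutation test, two-sided, p = 0.429, adjusted p = 0.429 over the 3 shares tested, smallest possible p = 0.0286). Wilson 95% intervals reached at most 0.00622 percentage points to either side of a tumor's share and cover counting error only. Without mAb-DXd/IMQ tumor 1 the difference was 0.806 percentage points (exact permutation test, p = 0.0571 by doubling the smaller tail and p = 0.0286 on the absolute difference, a definition added after seeing the data, neither adjusted for the 8 tumors left out in turn), and without mAb-DXd/IMQ tumor 4 it was 0.193. Both p values are the smallest possible there, as leaving out the only treated tumor below saline leaves the groups without overlap. In whole tumors, fewer cells of a type and less RNA per cell cannot be told apart.

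**Figure D3:**
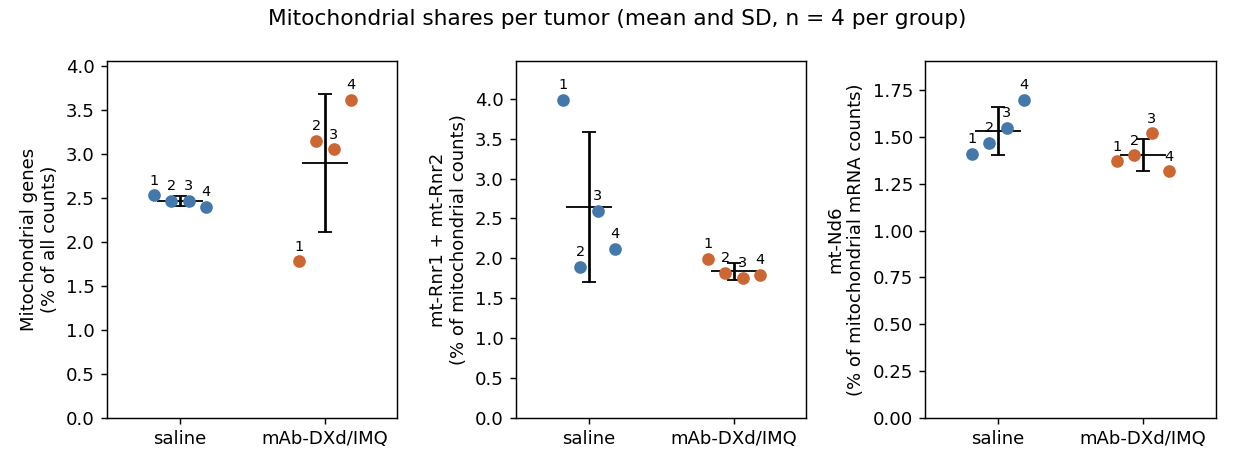
Share of all counts on mitochondrial genes, share of mitochondrial counts on both rRNA genes and share of mitochondrial protein-coding counts on mt-Nd6, in percent, for each tumor (numbered points) with group mean and SD (n = 4). Treated tumor 1 has the lowest mitochondrial share, 1.77%, and the other treated tumors lie between 3.05% and 3.61%, above the saline tumors.

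Of the 37 genes, 16 passed the filter on low counts, and 0 of these were called at an FDR under 0.05 with an absolute log2 fold change above 0.58 by edgeR's quasi-likelihood test, where 1.06% of all tested genes were called in either direction. None of the 16 had an unadjusted p under 0.05 with edgeR, where 18.9% of all tested genes did, and DESeq2 and limma-voom called 0 as well, where they called 4.25% and 0.94% of all tested genes. The CPM of the groups did not overlap in 0 of the 16, against 13.1% of all tested genes. Their median log2 fold change was 0.16, with 12 above 0 and 4 below, and that of all tested genes was 0.02. Single tumors moved this median, to 0.34 without mAb-DXd/IMQ tumor 1, 0.08 without mAb-DXd/IMQ tumor 2 and 0.04 without mAb-DXd/IMQ tumor 4, and it was 0.1 with limma-voom and 0.1 with the replicate number as a block. mAb-DXd/IMQ tumor 1 had the lowest CPM of the 8 tumors in 15 of the 16 genes, and mAb-DXd/IMQ tumor 4 the highest in 12. Without mAb-DXd/IMQ tumor 1, 8 of the 16 had an unadjusted p under 0.05, against 21.8% of all genes tested without that tumor, with 0 called and a lowest edgeR adjusted p of 0.0537. That fit lacks the tumor that was lowest in 15 of the 16 genes. The genes are transcribed together, so these 8 are not separate results.

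Among complex IV genes, mt-Co1 had 11947, 10482, 11362 and 10168 CPM in saline tumors 1 to 4 and 8919, 14393, 13043 and 16531 CPM in mAb-DXd/IMQ tumors 1 to 4. The treated values enclosed all saline values, and the log2 fold change was 0.27 ± 0.21 (SE, edgeR adjusted p = 0.537). mt-Co2 and mt-Co3 had log2 fold changes of 0.23 ± 0.22 and 0.14 ± 0.21 (SE, edgeR adjusted p of 0.607 and 0.763). For complex III, mt-Cytb had 3408, 4677, 3968 and 4335 CPM in saline tumors and 3185, 5259, 5025 and 5828 CPM in mAb-DXd/IMQ tumors. Treated tumors 2, 3 and 4 were above all saline tumors and tumor 1 was below them (log2 fold change 0.24 ± 0.21, SE, edgeR adjusted p = 0.578). Without mAb-DXd/IMQ tumor 4 the log2 fold changes of mt-Co1, mt-Co2 and mt-Cytb were 0.147, 0.118 and 0.138. Without mAb-DXd/IMQ tumor 1 they were 0.413, 0.406 and 0.388.

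Among the complex I genes, mt-Nd1 had 2999, 2905, 2657 and 2893 CPM in saline tumors 1 to 4 and 2060, 3374, 3055 and 3903 CPM in mAb-DXd/IMQ tumors 1 to 4. mt-Nd4 had 1561, 1960, 1733 and 1869 CPM in saline tumors and 1365, 2409, 2360 and 2655 CPM in mAb-DXd/IMQ tumors. In both genes treated tumor 1 was lowest and the other treated tumors were highest, so the groups overlapped. Log2 fold changes were 0.11 ± 0.19 for mt-Nd1, 0.07 ± 0.2 for mt-Nd2, 0.29 ± 0.21 for mt-Nd3, 0.3 ± 0.2 for mt-Nd4, 0.21 ± 0.25 for mt-Nd4l, -0.07 ± 0.19 for mt-Nd5 and 0.07 ± 0.17 for mt-Nd6 (SE), with edgeR adjusted p between 0.451 and 0.886. Without mAb-DXd/IMQ tumor 4 the log2 fold changes of mt-Nd3, mt-Nd4 and mt-Nd4l were 0.168, 0.206 and 0.0707. Without mAb-DXd/IMQ tumor 1 they were 0.419, 0.472 and 0.402. mt-Nd4l and mt-Nd4 share 7 bases, and mt-Nd5 and mt-Nd6 share 14 bases on opposite strands.

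For ATP synthase, mt-Atp6 had 78.9, 92.6, 80 and 89.8 CPM in saline tumors 1 to 4 and 71.6, 117, 120 and 113 CPM in mAb-DXd/IMQ tumors 1 to 4. Its log2 fold change of 0.3 ± 0.16 (SE) had the lowest edgeR adjusted p of the 16 genes, 0.323, and the groups overlapped through treated tumor 1 alone. mt-Atp8 had between 14 and 75 counts per tumor, both extremes among treated tumors, with a log2 fold change of 0.17 ± 0.56 (SE, edgeR adjusted p = 0.906) that turned to -0.29 with limma-voom. It shares 43 bases with mt-Atp6 on the same strand.

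**Figure D4:**
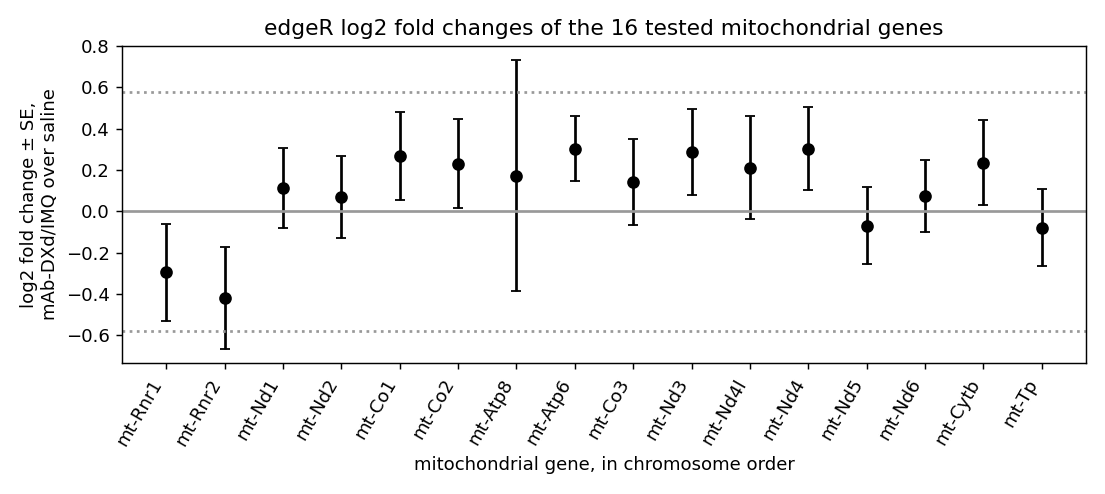
edgeR log2 fold change of mAb-DXd/IMQ over saline tumors for the 16 tested mitochondrial genes in chromosome order, with SE as bars and dotted lines at 0.58 to either side of 0. The values run from -0.42 for mt-Rnr2 to 0.3 for mt-Atp6, and none is past the dotted lines.

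The rRNA genes had the lowest fold changes when all 8 tumors were used. mt-Rnr1, the small subunit rRNA, had 522, 274, 355 and 259 CPM in saline tumors 1 to 4 and 205, 307, 273 and 365 CPM in mAb-DXd/IMQ tumors 1 to 4. mt-Rnr2, the large subunit rRNA, had 487, 198, 290 and 258 CPM in saline tumors and 172, 258, 229 and 263 CPM in mAb-DXd/IMQ tumors. Saline tumor 1 was highest for both, and the groups overlapped. Log2 fold changes were -0.3 ± 0.24 and -0.42 ± 0.25 (SE), with edgeR adjusted p of 0.534 and 0.393. Single tumors moved these values in both directions. Without saline tumor 1 they were -0.05 and -0.11, beside -0.09 for mt-Nd5 and -0.07 for mt-Tp, and without mAb-DXd/IMQ tumor 1 they were -0.17 and -0.3. Without mAb-DXd/IMQ tumor 4 they were -0.42 and -0.48, and without saline tumor 2 they were -0.4 and -0.583. In that last fit mt-Rnr2 was past the limit of 0.58 and was the 1 mitochondrial gene of 16 with an unadjusted p under 0.05 (edgeR adjusted p = 0.248), against 15.4% of all genes tested without saline tumor 2.

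As a share of mitochondrial counts, both rRNA genes together held 3.99%, 1.89%, 2.59% and 2.12% in saline tumors 1 to 4 and 2%, 1.82%, 1.75% and 1.79% in mAb-DXd/IMQ tumors 1 to 4. The groups overlapped between saline tumor 2 and treated tumor 1. Means were 2.65 ± 0.942% and 1.84 ± 0.108% (SD, n = 4 each), a difference of -0.809 percentage points that missed the threshold (exact permutation test, two-sided, p = 0.0571, adjusted p = 0.171 over 3 shares). Without 1 tumor the difference ran from -0.361 without saline tumor 1 to -1.06 without saline tumor 2 (exact permutation test, p = 0.0571 by doubling the smaller tail and p = 0.0286 on the absolute difference, unadjusted), with -0.984 without saline tumor 4. Wilson 95% intervals reached at most 0.0344 percentage points to either side. In poly(A)-selected libraries this share also depends on how far rRNA was captured, which was not tested.

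mt-Nd6 is the only mRNA of its strand. Its share of the mitochondrial protein-coding counts was 1.41%, 1.47%, 1.55% and 1.7% in saline tumors 1 to 4 and 1.37%, 1.4%, 1.52% and 1.32% in mAb-DXd/IMQ tumors 1 to 4. The groups overlapped, and the difference of means was -0.13 percentage points (exact permutation test, two-sided, p = 0.143, adjusted p = 0.214 over 3 shares), with Wilson 95% intervals of at most 0.0241 percentage points to either side. Without 1 tumor the difference ran from -0.0739 without saline tumor 4 to -0.171 without saline tumor 1, and it was -0.169 without mAb-DXd/IMQ tumor 3 (exact permutation test, p = 0.0571 by both definitions, unadjusted). The labels do not say whether these libraries kept the strand, so reads from the opposite strand of this gene could be among its counts.

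The make-up of the mitochondrial mRNA counts is given for mt-Nd5, chosen after its values were seen. It held 8.1%, 7.74%, 9.04% and 9.08% of the protein-coding mitochondrial counts in saline tumors 1 to 4 and 7.04%, 7.17%, 7.01% and 6.87% in mAb-DXd/IMQ tumors 1 to 4. Every treated tumor was below every saline tumor, and the means were 8.49 ± 0.673% and 7.02 ± 0.123% (SD, n = 4 each, not tested). It was the 1 gene of 13 whose shares did not overlap, and its CPM overlapped. On another measure, CPM, 13.1% of all tested genes did not overlap. In saline tumor 1, mt-Co1 held 49.2% and mt-Cytb 14% of these counts, the highest and lowest shares of the 8 tumors.

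Of the 22 tRNA genes, 21 had 0 counts in all 8 tumors, where 3 counts would be 0.0439 to 0.0843 CPM. The exception was mt-Tp, the proline tRNA, with 430, 349, 514 and 562 counts in saline tumors 1 to 4 and 301, 358, 367 and 368 counts in mAb-DXd/IMQ tumors 1 to 4. Its log2 fold change was -0.08 ± 0.19 (SE, edgeR adjusted p = 0.861), and the groups overlapped. How far tRNA was captured after poly(A) selection was not tested, so counts of 0 do not show that a tRNA was absent. Its 67 bases (chrMT:15356-15422, minus strand) are shown because it was the only tRNA gene counted.
mt-Tp: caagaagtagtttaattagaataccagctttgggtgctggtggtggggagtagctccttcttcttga

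By position, mt-Tp is the last gene annotated on chromosome MT and mt-Tf the first, so both border the noncoding control region of the circle, and mt-Tf had 0 counts in all 8 tumors. Every other tRNA gene has a gene within 32 bases on each side.

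The nuclear genes that act on the mitochondrial genome gave no calls with edgeR, which at 1.06% of all tested genes called is near the background for lists of this size. Of the 11 tested genes of mitochondrial transcription, 0 were called, and their median log2 fold change was 0.15. Their summed CPM was 190, 209, 192 and 195 in saline and 253, 221, 210 and 221 in mAb-DXd/IMQ tumors, without overlap and not tested. Singly, 1 of the 11 genes did not overlap, against 13.1% of all tested genes. Tfam, which packages mitochondrial DNA and starts its transcription, had 41.7 ± 2.32 CPM in saline and 54.6 ± 8.23 CPM in mAb-DXd/IMQ tumors (SD, n = 4), without overlap, as in 13.1% of all tested genes, but an edgeR adjusted p of 0.119 (log2 fold change 0.39 ± 0.12, SE). Polrmt had a log2 fold change of 0.15 ± 0.1 and Tfb2m of 0.07 ± 0.16 (SE), with edgeR adjusted p of 0.446 and 0.844.

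Of the genes for mitochondrial RNA processing and decay, 0 of 41 tested were called (median 0.05), against 1.06% of all tested genes. Lrpprc, which binds and stabilizes mitochondrial mRNAs, had a log2 fold change of -0.05 ± 0.1 (SE, edgeR adjusted p = 0.808), and its partner Slirp had too few counts for a test, between 0 and 11 per tumor. Pnpt1, a mitochondrial RNA-degrading enzyme named after its values were seen, had 45.5 ± 4.87 CPM in saline and 63.7 ± 4.46 CPM in mAb-DXd/IMQ tumors (SD, n = 4), with a log2 fold change of 0.49 ± 0.11 (SE) that missed both limits at an edgeR adjusted p of 0.055.

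Of the genes for mitochondrial DNA maintenance, 0 of 26 were called (median 0.02), against 1.06% of all tested genes. The polymerase Polg, the helicase Twnk and the mitochondrial topoisomerase Top1mt had log2 fold changes of 0.03 ± 0.15, 0.17 ± 0.11 and 0.35 ± 0.17 (SE), with edgeR adjusted p of 0.944, 0.401 and 0.287. Of the biogenesis regulators 0 of 14 tested were called (median -0.21), with Nrf1 at -0.21 ± 0.11, Esrra at 0.06 ± 0.13 and Ppargc1b at 0.04 ± 0.25 (log2 fold change, SE) and edgeR adjusted p of 0.333, 0.834 and 0.958. Ppargc1a was between 0 and 6 counts per tumor and was not tested.

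Genes of import and mass gave 0 calls of 21 (median 0.11), with Cs, the citrate synthase, at -0.1 ± 0.12, Vdac1, the outer membrane channel, at -0.12 ± 0.12 and Tomm20, an import receptor, at 0.03 ± 0.12 (log2 fold change, SE, edgeR adjusted p of 0.7, 0.623 and 0.931). The stress response list had 0 of 22 called (median 0.22, 20 above 0) and the mitophagy list 0 of 16 (median -0.23, 15 below 0). Across all tested genes edgeR called 1.06%, which is near 0 for lists of this size. Summed CPM of the stress response list was 1537, 1364, 1446 and 1327 in saline and 1904, 1587, 1626 and 1609 in mAb-DXd/IMQ tumors. Every treated tumor was above every saline tumor, which was not tested, and the sums of the mitophagy list overlapped. Singly, 2 of the 22 tested stress response genes did not overlap, against 13.1% of all tested genes. Over all nuclear mitochondrial lists, 49 of 234 tested genes (20.9%) had an unadjusted p under 0.05 with edgeR, against 18.9% of all tested genes. The distance between these shares depended on the setting, with 27.4% against 19.4% under upper-quartile scaling, 26.5% against 19.1% with library size only, 20.1% against 13.5% with no filter, 28.6% against 17.9% without mAb-DXd/IMQ tumor 3 and 17.1% against 18.6% without saline tumor 1. DESeq2 called 2 of the 234, Ndufa2 and Ndufb7 of complex I, which are named after their values were seen, where it called 4.25% of all tested genes.

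Nuclear subunits of complexes I to V were not ordered across tumors as the mitochondrial genes were. Their 83 genes summed to 8032, 8620, 8965 and 8818 CPM in saline tumors 1 to 4 and 11775, 9144, 7823 and 9534 CPM in mAb-DXd/IMQ tumors 1 to 4. Of these genes 0 were called by edgeR, against 1.06% of all tested genes, and their median log2 fold change was 0.13. mAb-DXd/IMQ tumor 1, the lowest for mitochondrial genes, was the highest here. The ratio of summed CPM of the 13 mitochondrial mRNAs to these 83 genes was 3.02, 2.85, 2.71 and 2.71 in saline tumors and 1.57, 3.34, 3.59 and 3.62 in mAb-DXd/IMQ tumors. Treated tumor 1 was below all saline tumors and the other treated tumors were above them.

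**Figure D5:**
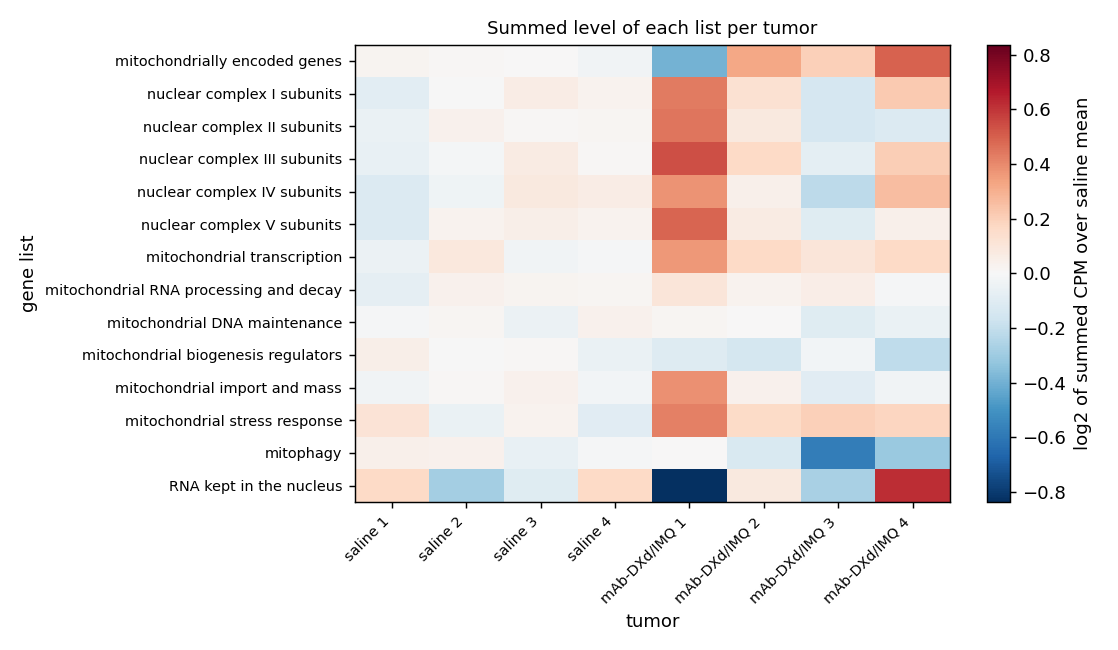
Summed CPM of each list in each tumor as log2 of its ratio to the saline mean (color), with lists in rows and tumors in columns. In mAb-DXd/IMQ tumor 1 the mitochondrially encoded genes are below the saline mean and all 5 lists of nuclear complex subunits are above it.

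RNA kept in the nucleus had its lowest and highest sums in the tumors with the lowest and highest mitochondrial share. The other tumors were not ordered alike. Its 6 markers, 5 of them tested, summed to 2311, 1697, 1928 and 2317 CPM in saline tumors 1 to 4 and 1155, 2183, 1713 and 3172 CPM in mAb-DXd/IMQ tumors 1 to 4, with Neat1 the most abundant and none at 0 in all tumors. Treated tumor 1 was lowest and treated tumor 4 highest in this sum, as in the mitochondrial share. Saline tumor 4 had the lowest share of the saline tumors (2.4%) but the highest sum among them. Treated tumor 3 had a share above all saline tumors (3.05%) but a sum below saline tumors 1, 3 and 4. Log2 fold changes of the 5 tested markers ran from -0.63 to 0.9. The part of these RNAs in the result was not tested.

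Of the marker lists, T cell and neutrophil markers alone had sums without overlap, lower in each treated tumor than in each saline tumor. On another measure, single-gene CPM, 13.1% of all tested genes did not overlap. T cell markers summed to 63.3, 97.9, 93.6 and 82.6 CPM in saline and 55.9, 46.5, 30.3 and 42.6 CPM in mAb-DXd/IMQ tumors, with 2 of 6 called lower by edgeR, against 0.519% of all tested genes called lower (Cd4 and Cd8a, named after their values were seen) and Cd8a the most abundant. Neutrophil markers summed to 225, 84.9, 92.4 and 125 CPM in saline and 33, 49.4, 51.4 and 67.2 CPM in mAb-DXd/IMQ tumors, with 1 of 5 tested called lower against the same 0.519% (Csf3r, also named after) and S100a9 the most abundant. No marker of either list was at 0 in all tumors. Their part in the mitochondrial values was not tested.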

How the data were processed

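The authors deposited a table of unnormalized counts for 8 tumors, with gene coordinates and lengths. Per the labels, HISAT2, HISAT and TopHat2 were named in the submitters' processing notes together with build mm39, but 53499 of 54409 gene identifiers shared with GENCODE M21 had its GRCm38 coordinates, including all 37 mitochondrial genes. The counting program, strand setting and handling of reads with several placements are not given in the sources used here. Members and lists were chosen with earlier results of these data known.

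Genes passing filterByExpr (minimum count 10, minimum total 15; 18511 genes) were compared with edgeR 4.0.16's quasi-likelihood F-test after TMM normalization (R 4.3.3), with Benjamini-Hochberg adjustment over all tested genes, an FDR of 0.05 and an absolute log2 fold change of 0.58. Standard errors were derived from the F statistic. Shares were compared by exact permutation over 70 assignments (scipy), with the two-sided p by doubling the smaller tail. Alternatives used DESeq2 1.42.0, limma 3.58.1, other scalings and filters, a replicate block and leaving out each tumor. Transcript sequences came from GENCODE M21, and windows of 100 bases were matched exactly on both strands. The edgeR fit was tested on simulated counts. No pair of the 8 libraries, within or across groups, agreed within sampling noise. All protein-coding and rRNA genes, counted tRNA genes, 15 nuclear genes and the 3 most counted nuclear copies were named whatever their values.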

Additional observations from a re-analysis of the deposited data

Results flagged for a closer look

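In 8 of 106 groups of 4 tumors examined, 1 tumor lay far from the other 3, where chance gives about 1 in 20. In mAb-DXd/IMQ tumor 1, mt-Atp6 was at 71.6 CPM (others 113 to 120), mt-Nd6 at 254 CPM (others 427 to 454), the nuclear copy Gm28437 at 60.01 CPM (others 92.1 to 94.5) and the 8 listed nuclear copies (among them Gm10221, which shared no window with a mitochondrial gene) at 340 CPM in sum (others 525 to 549). In the same tumor the mitochondrial stress response list was at 1904 CPM, above the others at 1587 to 1626.

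In saline tumor 1, genes for mitochondrial RNA processing and decay summed to 1264 CPM (others 1351 to 1368) and nuclear complex V subunits to 3016 CPM (others 3341 to 3385). Adipocyte markers summed to 41.6 CPM in saline tumor 4 (others 22.8 to 26).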

How the results depend on the processing

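No mitochondrial gene was called under any alternative run. The 3 shares kept their direction under every alternative. With the two-sided p of exact permutation tests by doubling the smaller tail they stayed above p = 0.05, including for the share on mt-Nd1, mt-Nd5, mt-Nd6 and mt-Cytb alone, chosen after seeing the data (difference 0.118 percentage points, p = 0.514). This definition allows no p below 0.0571 with 4 against 3 tumors. On the absolute difference, also chosen after seeing the data, the smallest p there is 0.0286, and it was reached by the mitochondrial share without mAb-DXd/IMQ tumor 1 (difference 0.806) and by the rRNA share without saline tumor 2 (difference -1.06). With all 8 tumors both definitions gave the same p.

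Among all tested genes, 197 were called, 358 with no filter (more genes tested), 787 with DESeq2 and 14 with the replicate block. The numbers do not pair the tumors, whose deviations correlated between -0.17 and 0.0794 for same-numbered tumors. Leaving out a tumor gave 10 to 203, with 111, 10 and 11 without saline tumors 2, 3 and 4 and 76, 88 and 12 without mAb-DXd/IMQ tumors 2, 3 and 4. Genes of the nuclear mitochondrial lists went from 0 called to 2 with upper-quartile scaling (Atp5o and Ndufb9), 2 with library size only (Atp5o and Ndufb9) and 2 with DESeq2 (Ndufa2 and Ndufb7), all named after their values were seen, and to between 0 and 1 without 1 tumor (Ndufb7, without mAb-DXd/IMQ tumor 3). Where not stated, the cause was not tested.

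The log2 fold change of mt-Atp8 turned to -0.29 with limma-voom and -0.15 with the replicate block. Without 1 tumor, log2 fold changes changed sign within these ranges: mt-Atp8 -0.303 to 0.48, mt-Co3 -0.0505 to 0.29, mt-Nd1 -0.0108 to 0.26, mt-Nd2 -0.0609 to 0.23, mt-Nd5 -0.17 to 0.0786, mt-Nd6 -8.7e-05 to 0.23, mt-Tp -0.21 to 0.0249, Esrra -0.036 to 0.16, Polg -0.12 to 0.15, Ppargc1b -0.15 to 0.15, Tfb2m -0.0024 to 0.21 and Tomm20 -0.0302 to 0.086. None of these genes was called.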
